A study of Mus musculus with 12 samples.

Results

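The 10 genes described here are parts of interleukin signalling through STAT3 in epithelium, together with acute phase genes of the same response: Il22ra1, Osmr, Stat3, Socs3, Lrg1, Saa1, Lcn2, Slpi, Cd14 and Upp1. They are 10 of the 28793 genes in the expression table. They were chosen by their RPKM values, as members of the pathway that stood higher in telomerase-null than in heterozygous crypts, so that contrast describes them here and does not test them. The RNA came from large intestinal crypts of mice on the C57BL/6 background, all 3 months old. They differed at Tert, the gene of the catalytic subunit of telomerase, which lengthens telomeres. Unsorted crypt epithelium is represented by 2 heterozygous libraries, by 2 libraries of generation 4 animals null for Tert (null G4) and by 2 libraries of generation 4 animals labelled as having Tert reactivated. GFP-sorted crypt cells, labelled as stem and progenitor cells, are represented by 3 heterozygous libraries and by 3 of generation 3 animals null for Tert (null G3). All controls were heterozygous, and no library came from mice with 2 intact copies of Tert. The libraries labelled reactivated carry the tag G4tam, which the labels do not spell out. The driver of GFP is not named, and no animal is named, although libraries within a group are described as biological replicates. The p-values therefore rest on the scatter among these libraries alone, and that scatter may be technical.

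Interleukin 22 and the interleukin 6 family are cytokines that bind paired receptor chains on epithelial cells and set off Janus kinases, which phosphorylate the transcription factor STAT3. STAT3 then switches on genes of barrier defence, among them secreted antimicrobial and acute phase proteins, and also SOCS3, an inhibitor that shuts the receptors off. In the colon the pathway is known for its part in the repair of the epithelium and in its answer to bacteria, with lymphoid and myeloid cells of the wall as the usual source of the cytokines.

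Positions are given on GRCm38, the assembly also called mm10, from GENCODE M21. Il22ra1 is at chr4:135728172-135752140, Osmr at chr15:6813577-6874969, Stat3 at chr11:100885098-100939540, Socs3 at chr11:117966079-117970047, Lrg1 at chr17:56119678-56122001 and Saa1 at chr7:46740497-46742980. Lcn2 is at chr2:32384633-32388252, Slpi at chr2:164354070-164389095 and Upp1 at chr11:9118103-9136170. Promoters were read because the genes moved together in crypts, which the choice of genes fixes in part. RefSeq windows (GRCm38.p6) from 250 bases before to 50 after each start were searched on both strands for 3 motifs, in 9 of the 10 genes. The STAT motif TTCNNNGAA was found in 1 of the 9 genes, Socs3, and in 8.29% of all 32817 windows. The C/EBP motif TTGCNNAA was found in 3 of the 9, Lcn2, Saa1 and Slpi, and in 10.8% of all windows. The NF-kB motif, GGGA and TCC with any 3 bases between them, was found in 1 of the 9, Il22ra1, and in 4.6% of all windows. A match describes letters only, and the absence of one says only that these letters are not in that window. The upstream bases of 4 genes are shown 5′ to 3′ on the gene's own strand, without bases in annotated exons, with the match, or its reverse complement in Slpi and Il22ra1, in capitals.
Socs3 (chr11:117969452-117969616, minus strand): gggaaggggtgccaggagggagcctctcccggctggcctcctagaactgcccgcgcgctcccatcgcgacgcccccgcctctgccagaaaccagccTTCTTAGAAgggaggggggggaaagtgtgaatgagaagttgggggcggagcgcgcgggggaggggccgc
Saa1 (chr7:46742981-46743230, minus strand): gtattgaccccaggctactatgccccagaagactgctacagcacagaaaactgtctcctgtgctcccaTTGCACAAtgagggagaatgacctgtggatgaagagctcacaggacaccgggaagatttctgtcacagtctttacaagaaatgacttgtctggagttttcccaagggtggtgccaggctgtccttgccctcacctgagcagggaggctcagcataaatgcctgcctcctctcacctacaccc
Slpi (chr2:164356508-164356757, minus strand): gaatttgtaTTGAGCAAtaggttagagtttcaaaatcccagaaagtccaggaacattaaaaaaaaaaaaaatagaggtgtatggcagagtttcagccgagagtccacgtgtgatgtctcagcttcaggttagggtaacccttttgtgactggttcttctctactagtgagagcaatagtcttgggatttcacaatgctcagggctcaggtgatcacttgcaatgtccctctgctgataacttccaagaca
Il22ra1 (chr4:135727909-135728158, plus strand): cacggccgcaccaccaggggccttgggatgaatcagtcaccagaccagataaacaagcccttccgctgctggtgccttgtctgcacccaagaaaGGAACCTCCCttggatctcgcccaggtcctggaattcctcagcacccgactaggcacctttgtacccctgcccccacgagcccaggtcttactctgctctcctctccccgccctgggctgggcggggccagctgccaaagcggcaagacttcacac
In Socs3 the capitals run from -154 to -146 of the start, in Saa1 from -182 to -175, in Slpi from -241 to -234 and in Il22ra1 from -156 to -147.

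In the unsorted crypts the epithelial markers Epcam, Cdh1, Krt8, Krt18, Krt19 and Vil1 summed to 1495 to 3125 RPKM (reads scaled to gene length and library depth) and the 6 general leukocyte markers to 2.32 to 7.83. In the unsorted libraries the smallest steps of the RPKM values implied depths of 75.1 to 103.3 M reads (M for mega), with less certain depths in the sorted ones. Tert was 0.459 and 0.251 RPKM in heterozygous crypts, 0.00778 and 0.0377 in null G4 crypts, and 0.0171 and 0.0311 in those labelled reactivated, so this last pair lay between the null values. In sorted cells Tert was 0.0424, 0.0583 and 0.169 RPKM in heterozygous libraries and 0, 0.0787 and 0.00131 in those labelled null G3. The labelled reactivation is therefore not visible in the Tert level, and the library labelled null G3 replicate 2 lay within the heterozygous range. Null G3 replicate 1 stood apart from the other 5 sorted libraries. It had small intestinal enterocyte markers at 5243 RPKM against 85.2 to 129.9, stem cell markers at 3.79 against 56.3 to 85.8 and cycling markers at 7.97 against 103.4 to 134.8. Transcripts from the Y chromosome were present in both heterozygous crypt libraries, in the second library labelled reactivated and in null G3 replicate 2, and absent from the others. Sex and the null genotype cannot be told apart in the unsorted crypts.

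**Figure D1:**
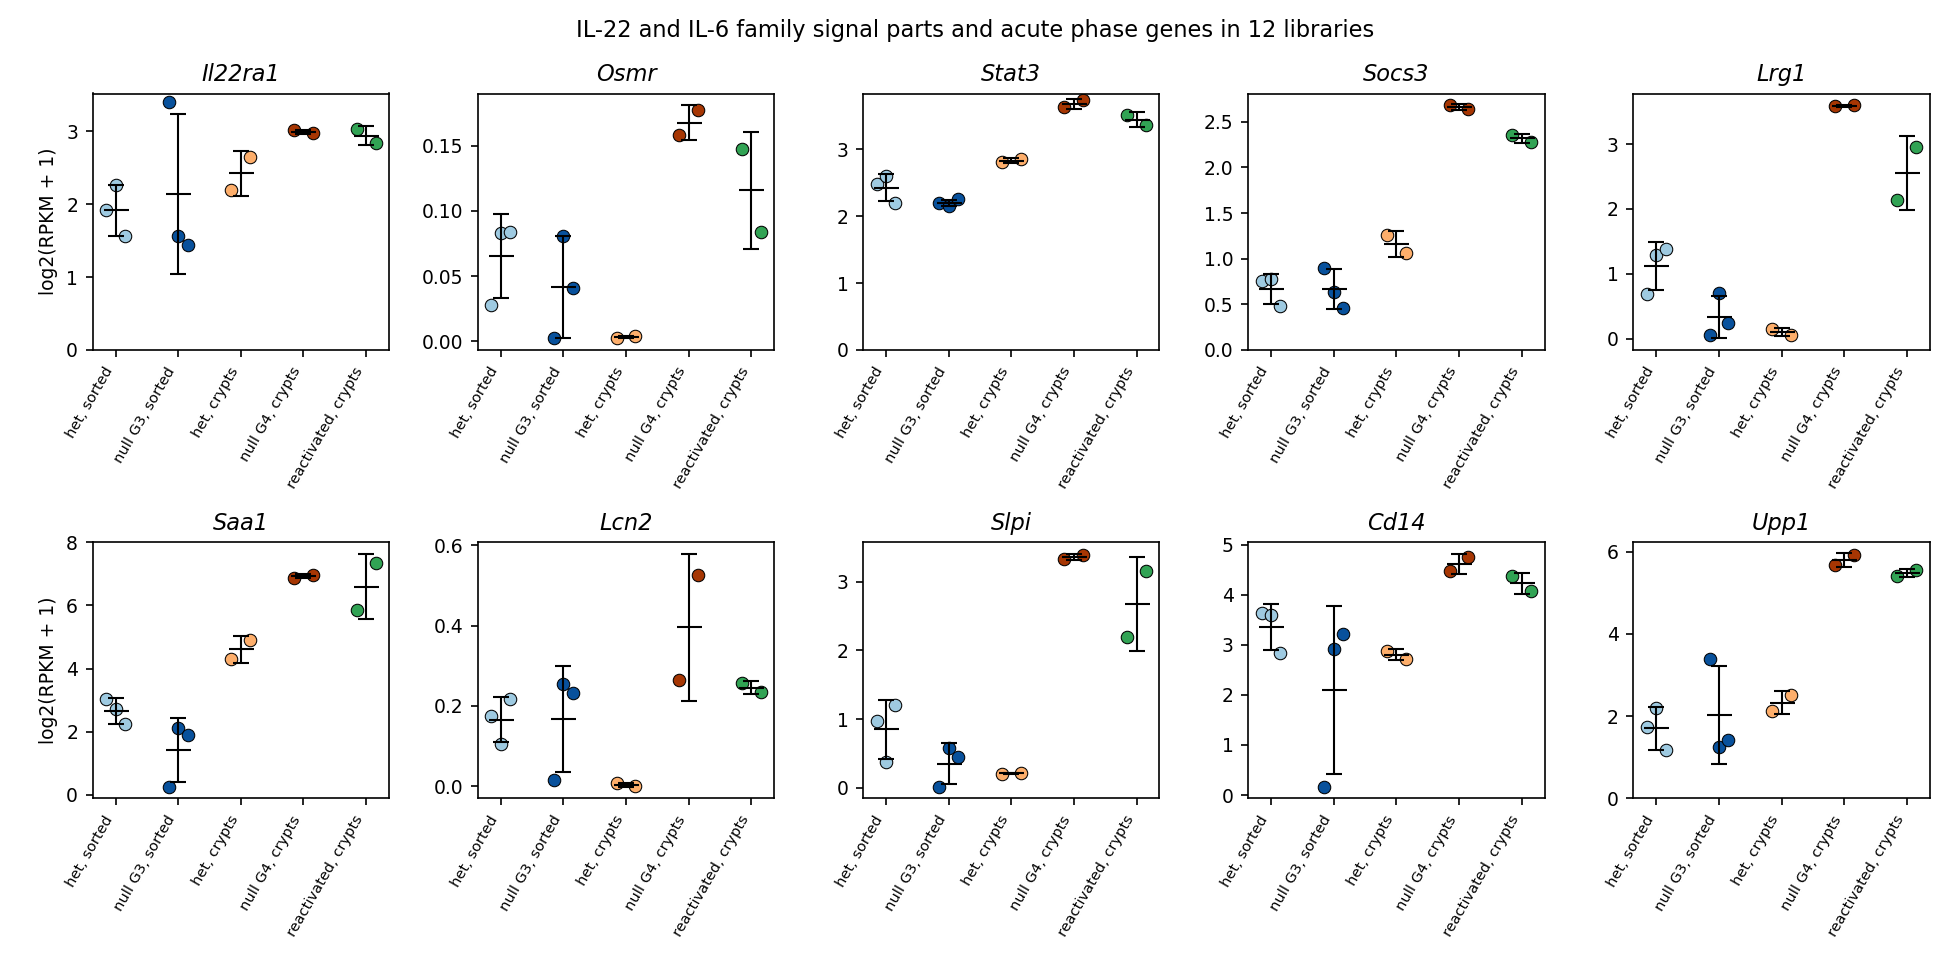
Level of each of the 10 genes as log2(RPKM + 1), by group. Points are single libraries, and a bar marks the group mean with its SD (n = 2 or 3). In unsorted crypts all 4 generation 4 libraries lie above both heterozygous ones for each of the 10 genes (74.7% of all 11464 fitted genes did so for null G4), whereas in sorted cells null G3 replicate 1 lies apart for Il22ra1, Upp1, Cd14 and Saa1.

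The receptor genes were 1 of moderate and 1 of very low level. Il22ra1, the chain that gives the interleukin 22 receptor its specificity, was 3.60 and 5.25 RPKM in heterozygous crypts, 7.07 and 6.85 in null G4 crypts and 7.20 and 6.18 in crypts labelled reactivated. Both heterozygous libraries lay below all 4 generation 4 libraries, which overlapped each other. Osmr, the oncostatin M receptor chain that pairs with gp130, was 0.00187 and 0.00280 RPKM in the heterozygous group, 0.116 and 0.131 in the null G4 group and 0.108 and 0.0598 in reactivated-labelled crypts. The heterozygous values of Osmr correspond to about 1.99 and 2.99 reads, and those of null G4 to about 106 and 160, and no library of the 12 exceeded 0.131 RPKM. Osmr was thus detected in every crypt library, but at a level far below that of Il22ra1.

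Stat3, the transcription factor itself, was 5.99 and 6.23 RPKM in heterozygous crypts, 11.4 and 12.3 in null G4 crypts and 10.5 and 9.32 in those labelled reactivated. The 3 groups did not overlap, and the libraries labelled reactivated fell between the other groups. Socs3, the inhibitor that STAT3 induces, was 1.39 and 1.09 RPKM in the heterozygous group, 5.44 and 5.23 in the null G4 group and 4.12 and 3.86 in reactivated-labelled crypts. Its groups took the same order without overlap, and its ratio of null G4 to heterozygous means was 4.30, against 1.94 for Stat3 and 1.57 for Il22ra1.

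The secreted acute phase and defence genes covered the widest range. Lrg1, a leucine-rich glycoprotein of the acute phase, was 0.109 and 0.0418 RPKM in heterozygous crypts, 11.0 and 11.1 in null G4 crypts and 3.42 and 6.75 in those labelled reactivated. The heterozygous values rest on about 13.5 and 5.20 reads, so that the ratio of means, 146.1, is known only roughly. Slpi, a secreted inhibitor of leukocyte proteases, was 0.155 and 0.163 RPKM in the heterozygous group, 9.09 and 9.52 in the null G4 group and 3.59 and 7.95 in reactivated-labelled crypts. Like Lrg1 it was near the floor in heterozygous crypts, with about 16.0 and 17.0 reads, and in the libraries labelled reactivated its values lay between the other groups.

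Saa1, serum amyloid A, had the highest level of the 10 per length in all 3 crypt groups, whereas in both sorted groups Cd14 had a higher mean. It was 18.9 and 29.0 RPKM in heterozygous crypts, 117 and 124 in null G4 crypts, and 57.1 and 160.3 in those labelled reactivated. The libraries labelled reactivated lay on either side of the null G4 pair. Its near-identical neighbour Saa2 stayed at or under 0.37 RPKM in all libraries, and how reads shared by the 2 genes were counted is not given in the sources used here. Lcn2, which withholds iron from bacteria, was low in all libraries. It was 0.00493 and 0 RPKM in heterozygous crypts, about 1.14 reads and none, against 0.202 and 0.439 in null G4 and 0.195 and 0.176 in reactivated-labelled crypts.

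Cd14, at chr18:36725067-36726798, encodes the co-receptor that hands bacterial lipopolysaccharide to its receptor. It was 6.37 and 5.59 RPKM in heterozygous crypts, 21.2 and 26.1 in null G4 crypts and 19.7 and 15.9 in those labelled reactivated. Upp1, uridine phosphorylase, which splits uridine for reuse, was 3.36 and 4.73 RPKM in the heterozygous group, 50.5 and 59.9 in the null G4 group and 41.8 and 45.9 in reactivated-labelled crypts. For both genes the 3 groups did not overlap, and the order was heterozygous, labelled reactivated, null G4. Of genes listed in unsorted crypts 79.7% had a lower mean than Upp1 in heterozygous and 98.2% in null G4 libraries.

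Per length, the order of mean levels in heterozygous crypts was Saa1, Stat3, Cd14, Il22ra1, Upp1, Socs3, Slpi, Lrg1, Lcn2 and Osmr. Stat3 and Cd14 overlapped there, as did Il22ra1 and Upp1, and Lcn2 and Osmr. In null G4 crypts it was Saa1 (120.2 RPKM), Upp1 (55.2), Cd14 (23.6), Stat3 (11.8), Lrg1 (11.0), Slpi (9.31), Il22ra1 (6.96), Socs3 (5.33), Lcn2 (0.320) and Osmr (0.124). Neighbours in that second order did not overlap between their 2 libraries.

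On the scale of log2(RPKM + 1), on which differences of low genes are understated, the null G4 minus heterozygous differences were 3.49 for Upp1, 3.48 for Lrg1, 3.15 for Slpi, 2.31 for Saa1, 1.81 for Cd14, 1.503 for Socs3, 0.85 for Stat3 and 0.57 for Il22ra1. Osmr and Lcn2 never reached 1 RPKM and were not fitted. Lrg1 and Slpi entered the fit only through the libraries in which they were high. In this contrast, which chose the genes, 7 of 8 had an adjusted p under 0.05 in limma's fit, and 4.97% of all 11464 genes did so in the higher and 0.576% in the lower direction. Nothing is read from that count. The median difference of all genes was 0.36, so the values above include a general shift upward. With quantile normalization the median became 0.016, the calls over all genes went from 570 higher and 66 lower to 135 higher and 102 lower, and Il22ra1 and Stat3 had differences of 0.19 and 0.41.

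Whether the same genes stood high in the libraries labelled reactivated, which the choice of genes did not use, was asked against the heterozygous crypts, which it did use. Upp1 rose by 3.16 on the log2 scale (SE 0.22, adjusted p = 0.00028, limma, n = 2 per group) and Slpi by 2.47 (SE 0.27, adjusted p = 0.0036). Lrg1 rose by 2.44 (SE 0.24, adjusted p = 0.0022), Cd14 by 1.42 (SE 0.20, adjusted p = 0.013) and Socs3 by 1.16 (SE 0.14, adjusted p = 0.0078). Of the 8 fitted genes 5 passed, where 1.13% of all 11464 genes passed in the higher and 0.148% in the lower direction. Saa1 differed by 1.99 (SE 0.44, adjusted p = 0.094), Stat3 by 0.61 (SE 0.16, adjusted p = 0.166) and Il22ra1 by 0.52 (SE 0.19, adjusted p = 0.305), and these 3 did not pass. All 8 lay higher without overlap, as did 46.7% of all genes, and the median of the 8 was 1.70 beside 0.22 over all genes. The heterozygous libraries took part in the choice, and Lrg1 and Slpi entered the fit only through libraries in which they were high. Part of each difference is thus fixed by the choice, and the count is no support for the genes as a group.

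Some of these differences depended on single libraries, and some calls on scaling. Without the first library labelled reactivated Saa1 was 2.72, and without the second 1.25. The single library left is then assumed to vary like the other groups, so only the differences are given. Without the first, the library left carries Y transcripts like both heterozygous ones. There Cd14 was 1.27, Socs3 1.12, Lrg1 2.85, Slpi 2.95 and Upp1 3.23. The limit from the choice of genes holds here too, and the part of sex was not tested. Under quantile normalization Lrg1 (adjusted p = 0.051) and Slpi (adjusted p = 0.069) did not pass.

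**Figure D2:**
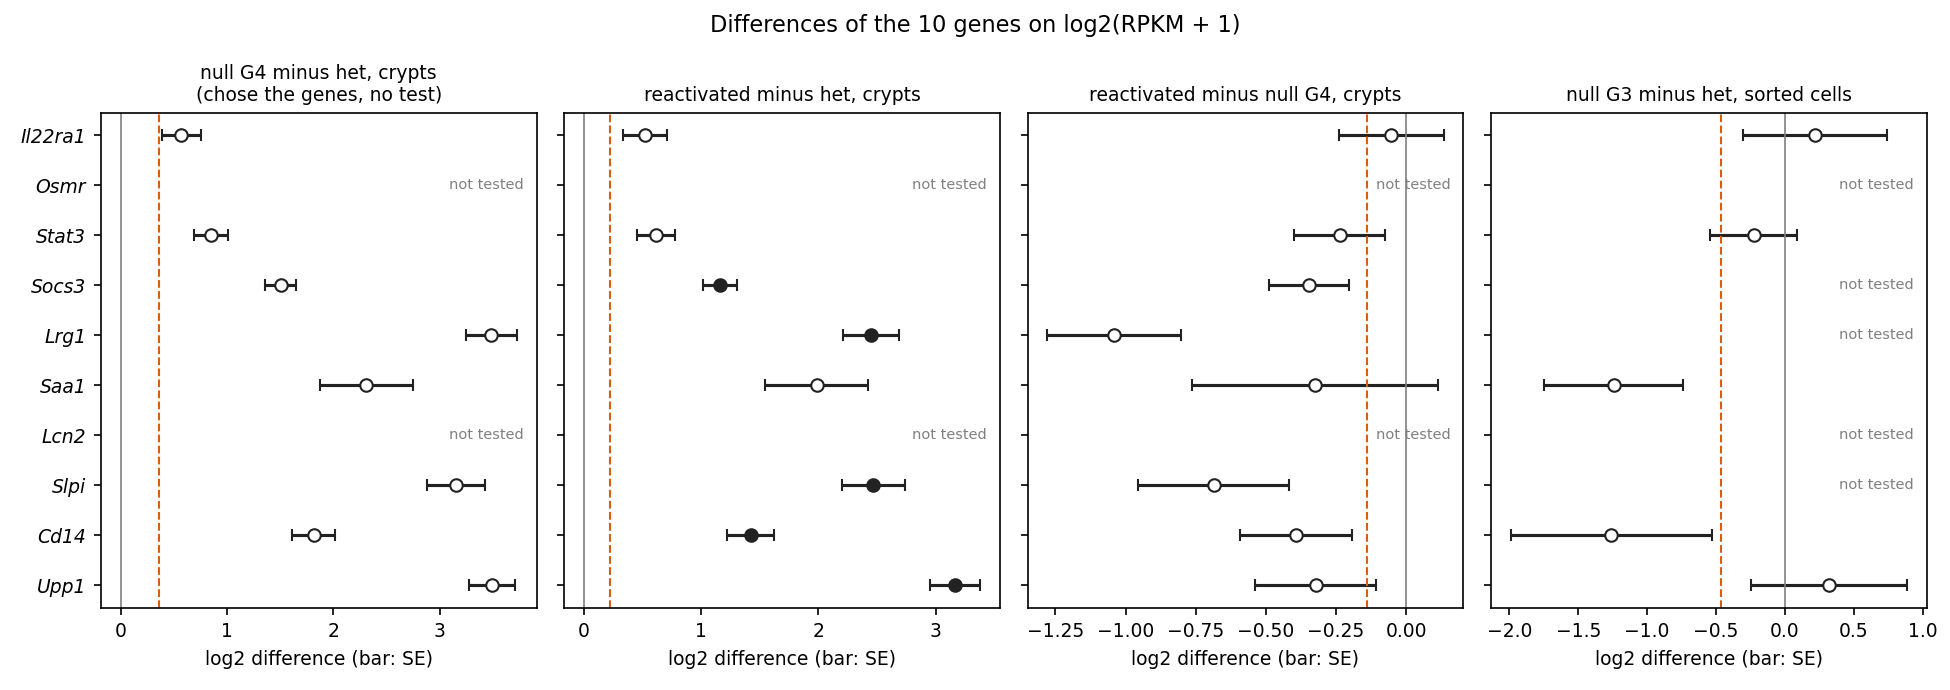
Differences between groups on log2(RPKM + 1) for the 10 genes, with SE bars from limma; filled points passed at an adjusted p under 0.05, and the dashed line is the median of all genes tested. Filled points occur in the comparison of the libraries labelled reactivated with heterozygous crypts only (5 genes), the first panel is drawn open because that contrast chose the genes, and the horizontal scales differ between panels.

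The null G4 libraries also took part in the choice, as the group in which the genes were high, so a lower level in another group is partly fixed by it. Against null G4 crypts the libraries labelled reactivated had lower means for all 8 fitted genes, and 0 of 8 passed, where 0.0262% of all genes (3 of 11464) did. An unadjusted p under 0.05 was found for 310 genes of all, among them Lrg1, Slpi and Socs3. The difference was -1.04 for Lrg1 (SE 0.24, adjusted p = 0.833, limma, n = 2 per group), -0.69 for Slpi, -0.39 for Cd14, -0.35 for Socs3, -0.32 for Saa1 and Upp1, -0.24 for Stat3 and -0.05 for Il22ra1. For 6 of the 8, all but Saa1 and Il22ra1, both libraries labelled reactivated lay below both null G4 libraries, as for 25.5% of all genes. The median over all genes was -0.14 and that of the 8 was -0.33.

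Lrg1 had the largest difference of the 8 in this comparison, and it depended on the library. Without the second library labelled reactivated, which leaves libraries without Y transcripts on both sides, its difference was -1.45 and that of Slpi -1.17. That fit leaves 1 library in the group, and the null G4 libraries took part in the choice of genes. In the first library labelled reactivated the secreted genes stood lowest. On the log2 scale Saa1 covered 54.1% of the distance from the heterozygous to the null G4 mean, Lrg1 58.5% and Slpi 63.0%. The signalling genes of that library lay nearer the null level, with Socs3 at 79.5%, Stat3 at 81.1% and Il22ra1 at 107.6%. In the second the order was turned, with Saa1 at 117.8%, Slpi at 93.5% and Lrg1 at 81.8%, against 63.4% for Stat3, 74.1% for Il22ra1 and 74.5% for Socs3. Lcn2, also secreted, was at 64.6% and 58.9%. Upp1 was at 88.9% and 92.6% and Cd14 at 86.5% and 70.2%. The difference between these 2 libraries has no test.

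**Figure D3:**
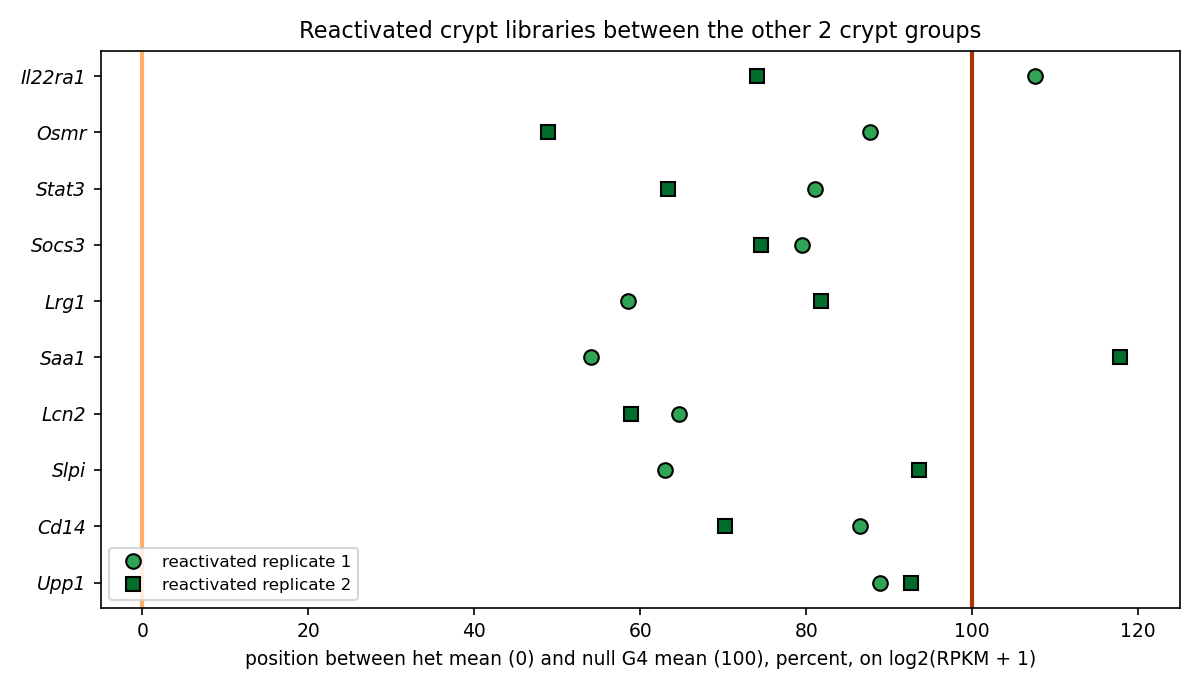
Position of each of the 2 crypt libraries labelled reactivated between the heterozygous mean (0) and the null G4 mean (100), in percent of that distance on log2(RPKM + 1), for the 10 genes. The lowest point is Osmr in the second library at 48.9 percent, and the 2 libraries take opposite orders for Saa1, Lrg1 and Slpi against Il22ra1, Stat3 and Osmr.

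In sorted crypt cells, which the choice of genes did not use, none of the 5 fitted genes passed between null G3 and heterozygous libraries. By limma 0 of 5 passed, with 0% of all 8734 genes called and 143 at an unadjusted p under 0.05. Cd14 was 11.5, 11.1 and 6.12 RPKM in heterozygous against 0.120, 6.55 and 8.25 in null G3 cells, a log2 difference of -1.26 (SE 0.73, adjusted p = 0.481, n = 3 per group). Saa1 was 7.25, 5.58 and 3.70 against 0.196, 3.31 and 2.73 RPKM, a difference of -1.24 (SE 0.51, adjusted p = 0.481). All 3 null G3 libraries of Saa1 lay below all 3 heterozygous ones, as for 12.6% of all genes, whereas Cd14 overlapped.

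Stat3 in sorted cells was 4.59, 5.04 and 3.60 RPKM in heterozygous against 3.58, 3.44 and 3.76 in null G3 libraries, a difference of -0.23 (SE 0.31). Il22ra1 was 2.78, 3.82 and 1.96 against 9.56, 1.97 and 1.70 RPKM, and Upp1 was 2.32, 3.63 and 1.26 against 9.51, 1.40 and 1.68. In each of these last 2 genes the high value belongs to null G3 replicate 1. Their differences, 0.22 and 0.32, became -0.42 and -0.36 without that library, and those of Cd14 and Saa1 became -0.29 and -0.66. The median over all genes was -0.46 with it and -0.19 without. In simulated data of this size (8734 genes) 2 of 100 changes of 1 log2 unit and 44 of 100 of 2 units were recovered, so a change of the sizes above could be missed. The changes were planted in genes above a set mean level, with normally distributed scatter and no outlying library. Il22ra1, Upp1 and Stat3 lay below that level in both sorted groups. Saa1 lay below it in null G3 cells and in its mean over both groups. For Il22ra1, Upp1, Stat3 and Saa1 the recovery is thus a rough guide only.

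The other 5 genes stayed under 2 RPKM in sorted cells and were not fitted there. Socs3 was 0.688, 0.715 and 0.397 RPKM in heterozygous against 0.866, 0.549 and 0.379 in null G3 cells. Lrg1 was 0.617, 1.44 and 1.60 against 0.0426, 0.621 and 0.182 RPKM, and Slpi 0.960, 0.300 and 1.32 against 0.0118, 0.497 and 0.373. Both had the lowest value in null G3 replicate 1, and their groups overlapped. Lcn2 lay at 0.0106 to 0.192 RPKM and Osmr at 0.00156 to 0.0601 over the 6 libraries.

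Levels of heterozygous sorted cells were set beside those of heterozygous crypts, with the limit that the 2 sets list different genes and may have been normalized apart. Y transcripts were absent from all sorted heterozygous libraries and present in both crypt ones, so these 2 groups alone cannot tell sorting from sex. The heterozygous crypt libraries took part in the choice of genes, as the group in which they were low, which favours a higher level elsewhere. Here 2 of 8 genes passed, where 35.6% of all 11862 genes did (4.32% higher and 31.3% lower), and nothing is read from that count. Lrg1 was higher in sorted cells by 1.01 (SE 0.29, adjusted p = 0.019, limma) and Saa1 was lower by a difference of -1.95 (SE 0.57, adjusted p = 0.021). Both calls were lost on leaving out either heterozygous crypt library (adjusted p of 0.088 and 0.123 for Lrg1, 0.059 and 0.161 for Saa1) or heterozygous sorted replicate 3 (0.067 and 0.073), the call for Lrg1 also without sorted replicate 2 (0.060), and Saa1 was -0.73 (adjusted p = 0.478) with a term for sex. The values of Lrg1 in sorted heterozygous cells, 0.617 to 1.60 RPKM, lay above its 0.0418 and 0.109 in heterozygous crypts and below the 3.42 to 11.1 of generation 4 crypts.

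The likeness of the 10 genes to each other is fixed in part by the choice in crypts, since all were chosen as higher in null G4 than in heterozygous crypts, and only the sorted libraries stand outside it. Pearson's r of values scaled within each set of cells is given as a description over 12 libraries that share genotype groups. They may also share batches, which the labels do not name. Over all 12 libraries the closest pairs were Il22ra1 with Upp1 (r = 0.944), Socs3 with Upp1 (0.914) and Saa1 with Cd14 (0.904), followed by Lrg1 with Osmr (0.872). Over the 6 crypt libraries alone the lowest r of any pair was 0.745, between Il22ra1 and Lcn2. In the 6 sorted libraries Il22ra1 and Upp1 ran against Saa1 (r = -0.678 and -0.673) and Cd14 (-0.798 and -0.760). Without null G3 replicate 1 these 4 values became 0.805, 0.683, 0.778 and 0.890, so the division between these pairs rests on that library. Lcn2 ran against Il22ra1 with it (-0.972) and without it (-0.959). Pairs among the other genes turned too, Lcn2 with Cd14 from 0.669 to -0.797, Lcn2 with Saa1 from 0.550 to -0.741, Osmr with Cd14 from 0.608 to -0.503 and Slpi with Cd14 from 0.584 to -0.322.

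**Figure D4:**
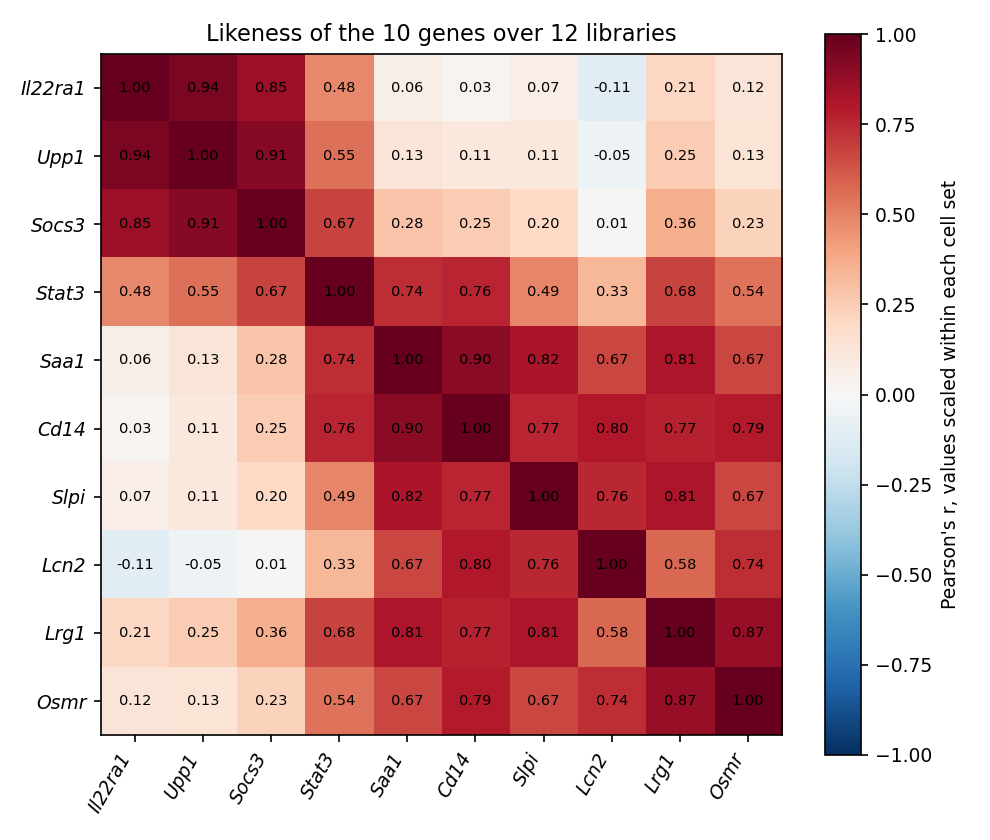
Pearson's r between the 10 genes over 12 libraries, each gene centred and scaled within sorted cells and within crypts. Il22ra1, Upp1 and Socs3 have values of 0.85 to 0.94 with each other, and Saa1, Cd14, Slpi, Lcn2, Lrg1 and Osmr of 0.58 to 0.90; in sorted cells values both within the latter group and between the groups change sign without null G3 replicate 1.

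Of 8474 other genes, the 8 most like the mean profile of the 10 included 2 clone or predicted genes. The other 6 were Ms4a8a (r = 0.904), Tmem50b (0.898), Lgalsl (0.888), the calcium-binding protein gene S100a14 (0.886), the peptide transporter gene Tap1 (0.883) and the endothelial lipase gene Lipg (0.881). Ms4a8a was 55.3 and 71.3 RPKM in the heterozygous group, 164 and 187 in the null G4 group and 146 and 142 in reactivated-labelled crypts, against 35.6 to 58.6 in the 6 sorted libraries. Tap1 was 3.12 and 3.69, 17.0 and 20.2, and 21.6 and 16.3 RPKM in the same order of crypt groups.

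The cytokines that act on these receptors were hardly measured. Of 17 ligand genes 13 were listed in the crypt libraries and 0 reached 1 RPKM, the highest being the cardiotrophin gene Ctf1 at 0.895. Il22 itself was not listed under that symbol, so its level is not known here. Il6 was 0 RPKM in 5 of the 6 crypt libraries and 0.00914 in the other. Lif, leukaemia inhibitory factor, was 0.290 and 0.345 RPKM in heterozygous crypts, 0.858 and 0.774 in null G4 and 0.726 and 0.688 in reactivated-labelled crypts, the groups not overlapping, and Osm did not exceed 0.0745 RPKM.

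The partner chains of the receptors did not pass the test. Of 14 chains 3 were fitted in crypts and 0 passed in either comparison with heterozygous crypts, where 4.97% and 1.13% of all genes rose. Il10rb, which completes the interleukin 22 receptor, differed by 0.38 in null G4 crypts (SE 0.19, adjusted p = 0.159) and by 0.19 in those labelled reactivated (adjusted p = 0.557). Il6st, which encodes gp130, differed by 0.36 (SE 0.15, adjusted p = 0.0999) and 0.21 (adjusted p = 0.421), and Il11ra1 by 0.052 and 0.050. Their medians, 0.36 and 0.19, lay beside 0.36 and 0.22 over all genes.

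Among the Janus kinases, only Jak3 passed in null G4 crypts by limma, at 0.63 (SE 0.14, adjusted p = 0.044). Jak2 differed there by 0.61 (adjusted p = 0.066), Jak1 by 0.50 (adjusted p = 0.077) and Tyk2 by 0.22 (adjusted p = 0.298). The median over all genes was 0.36, and 4.97% of them rose. In crypts labelled reactivated Jak3 differed by 0.54 (SE 0.14, adjusted p = 0.159) and did not pass. None of the 16 other negative regulators fitted passed in either comparison, where 4.97% and 1.13% of all genes rose. A count so near those shares says nothing about the regulators. Socs1, the nearest relative of Socs3 in function, differed by 0.69 (adjusted p = 0.062) and 0.89 (adjusted p = 0.129).

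Of 17 fitted regulators that STAT3 is known to induce, 5 rose in null G4 crypts, where 4.97% of all genes did, and 3 in those labelled reactivated, where 1.13% did, with 0 lower. Hif1a, the hypoxia factor, was 6.06 and 6.56 RPKM in the heterozygous group, 17.4 and 19.0 in the null G4 group and 13.1 and 15.6 in reactivated-labelled crypts, rises of 1.39 (SE 0.18, adjusted p = 0.0051) and 1.07 (SE 0.18, adjusted p = 0.029). Cebpd, a C/EBP factor of the acute phase, rose by 1.34 (SE 0.20, adjusted p = 0.012) and 1.58 (SE 0.20, adjusted p = 0.0081). Nfkbiz, an NF-kB co-regulator, rose by 1.33 in null G4 crypts (SE 0.21, adjusted p = 0.014) and differed by 1.01 in those labelled reactivated (adjusted p = 0.073). Irf1, an interferon regulatory factor, rose by 1.26 (SE 0.21, adjusted p = 0.019) and 1.14 (SE 0.21, adjusted p = 0.046). With quantile normalization 3 of the 17 were called higher and 1 lower in null G4 crypts, and with a term for sex 0. The list was drawn up with results of these data known, so these counts are not independent evidence.

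The list of other epithelial genes known to answer interleukin 22 had the largest share of calls among the 9 lists. Of its 30 genes 21 were fitted, 13 rose in null G4 crypts, where 4.97% of all genes did, and 10 in those labelled reactivated, where 1.13% did. None was lower, and its medians were 1.34 and 0.88 beside 0.36 and 0.22 over all genes. Nos2, inducible nitric oxide synthase, was 0.240 and 0.549 RPKM in the heterozygous group, 9.60 and 10.01 in the null G4 group and 7.36 and 7.50 in reactivated-labelled crypts, rises of 2.96 (SE 0.16, adjusted p = 5.5e-05) and 2.60 (SE 0.16, adjusted p = 0.00015). Ubd, a ubiquitin-like protein gene, rose by 2.74 and 2.41 (SE 0.15 for both). Reg3b, a secreted lectin that kills bacteria, was 15.7 and 58.5 RPKM in the heterozygous group, 1941 and 2228 in the null G4 group and 1113 and 452 in reactivated-labelled crypts, rises of 6.05 (SE 0.60, adjusted p = 0.0015) and 4.49 (SE 0.60, adjusted p = 0.0096).

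In the same list 8 of the 21 fitted genes did not pass in null G4 crypts. With quantile normalization 10 and 5 of the 21 genes were called higher in the 2 comparisons, and with a term for sex 3 and 6. S100a8 and S100a9, which encode calprotectin, stayed at or under 0.153 RPKM in all crypt libraries. This list, like all 9 pathway lists, was drawn up with results of these data known and is not independent evidence.

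Of 30 other acute phase protein genes 6 were fitted. C3, the central complement component, was 0.793 and 0.884 RPKM in the heterozygous group, 5.72 and 6.38 in the null G4 group and 4.18 and 4.33 in reactivated-labelled crypts, rises of 1.94 (SE 0.14, adjusted p = 0.00024) and 1.51 (SE 0.14, adjusted p = 0.0015). Il1rn, the interleukin 1 receptor antagonist, rose by 1.07 in null G4 crypts (SE 0.21, adjusted p = 0.033). These were 2 and 1 calls of 6, beside 4.97% and 1.13% of all genes, in a list also drawn up with results known.

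Beside Cd14, 11 genes of the lipopolysaccharide receptor, of other Toll-like receptors and of their downstream signal parts were fitted. Of these 2 rose in null G4 crypts, where 4.97% of all genes did. In those labelled reactivated 0 passed, where 1.13% of all genes rose. Tlr4, the receptor itself, rose by 0.67 (SE 0.14, adjusted p = 0.037) and Ly96, its MD-2 subunit, by 0.80 (SE 0.17, adjusted p = 0.039), and neither passed under quantile normalization. Beside Slpi and Upp1, of 15 fitted protease inhibitors and nucleoside enzymes 2 rose in both comparisons, beside 4.97% and 1.13% of all genes. Slc28a3, a concentrative nucleoside transporter, rose by 1.37 (SE 0.16, adjusted p = 0.0035) and 1.06 (SE 0.16, adjusted p = 0.018), and Wfdc18, of the same protein family as Slpi, by 1.496 (SE 0.19, adjusted p = 0.0047) and 1.30 (SE 0.19, adjusted p = 0.014). Between null G4 crypts and those labelled reactivated 0 genes of any of the 9 lists passed, and in sorted cells 0 of any list passed, where 0.0262% and 0% of all genes did.

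**Figure D5:**
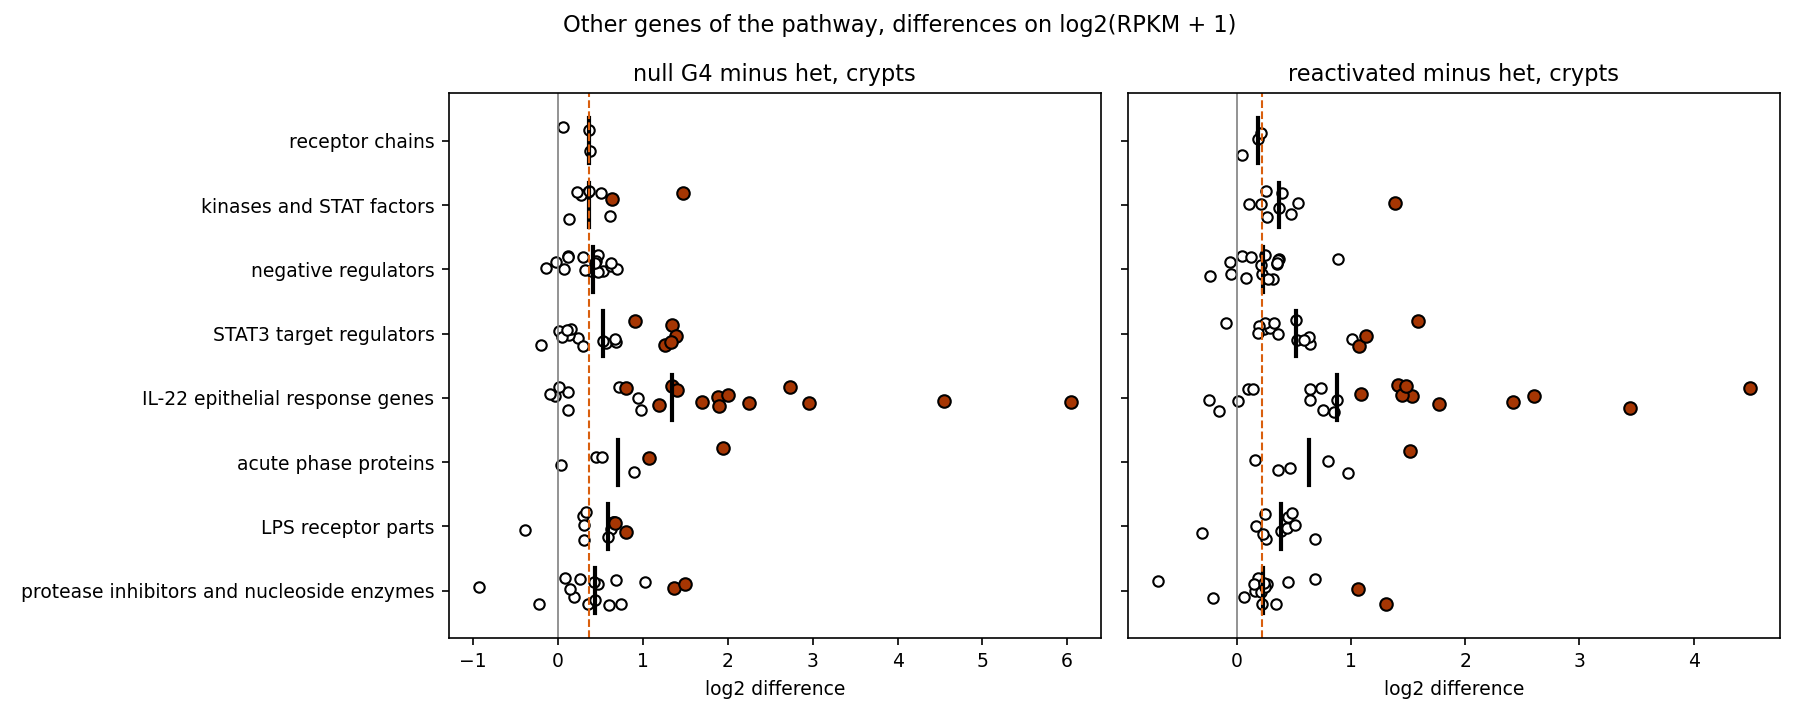
Differences on log2(RPKM + 1) of other genes of the pathway, by list, in null G4 crypts and in crypts labelled reactivated, each against heterozygous crypts. Filled points passed at an adjusted p under 0.05 in limma's fit, black bars are list medians and the dashed line is the median of all genes; the interleukin 22 response list stands highest, with medians of 1.34 and 0.88.

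Cd14, Lcn2, Slpi and Saa1 are also made by other cells, and in bulk libraries fewer cells of a type and less RNA per cell cannot be told apart. Markers of other cells in heterozygous, null G4 and reactivated-labelled crypts were therefore summed. Leukocyte markers were 3.37 and 7.83 RPKM, 4.30 and 3.58, and 4.14 and 2.32, so heterozygous and generation 4 libraries overlapped. Macrophage and monocyte markers were 2.56 and 3.47, 2.58 and 2.72, and 2.80 and 1.32 RPKM. T and innate lymphoid markers ranged over 5.503 to 17.0 RPKM, those of B and plasma cells over 0.121 to 0.868 and those of dendritic cells over 0.173 to 0.593.

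The neutrophil list moved with the 10 genes, at 1.63 and 0.701 RPKM in the heterozygous group, 13.2 and 15.6 in the null G4 group and 9.42 and 28.2 in reactivated-labelled crypts. It consisted almost wholly of Ly6g, at 28.2 RPKM at most. The defining neutrophil genes S100a8, S100a9, Csf3r, Cxcr2, Mmp8, Mpo and Retnlg were at 0 or at most 0.153 RPKM in every crypt library. Cycling markers also moved, at 44.6 and 46.4, 102.5 and 111.9, and 86.0 and 50.8 RPKM, and fibroblast markers at 0.643 and 1.07, 2.06 and 2.68, and 1.65 and 0.399. The part of either in the results was not tested. Surface colonocyte markers ranged over 339.9 to 806.4 RPKM, goblet cell markers over 3055 to 4434, stem cell markers over 33.2 to 43.8, and small intestinal enterocyte markers over 73.8 to 273.3, each with overlap between heterozygous and generation 4 crypts. Epithelial markers were higher in all 4 generation 4 libraries (2522 to 3125 RPKM) than in the heterozygous ones (1495 and 1941), and endothelial markers lower (0.400 to 0.442 against 0.646 and 0.807). Their part in the results was not tested either.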

How the data were processed

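The 12 libraries, in 5 groups, were prepared per the labels from 1 ug of RNA each with TruSeq reagents. STAR (2.3.0e) and mm10 are credited to the submitters' processing notes; the sources used here do not give annotation, counter or strand setting. The authors deposited RPKM values in 1 table, and all 12 sample columns were used. On log2(RPKM + 1), genes that reached 1 RPKM in 2 libraries (crypts, all 12 libraries) or 3 (sorted) were fitted with limma 3.58.1 in R 4.3.3 (eBayes with trend, two-sided), and Benjamini-Hochberg adjusted p-values over all fitted genes were held against 0.05. Crypts and sorted cells were fitted apart, and the comparison between them over all 12 libraries. On simulated data 77 of 100 changes of 1 log2 unit were recovered for reactivated against heterozygous crypts (11464 genes) and 2 of 100 in sorted cells (8734 genes). These changes were planted in genes above a set mean level, with normally distributed scatter. Uck2 has 2 entries in the table, both plotted, and was counted as 1 gene. All 10 genes, up to 4 genes of smallest p in each of 9 pathway lists and the 8 genes most like the 10 were to be named; Lif, Il6, Osm, Ctf1, Saa2, S100a8, S100a9, Ly6g and Reg3g were named after their values were seen, and 3 list genes are not reported here. The genes, the pathway lists and 14 marker lists were chosen with earlier results of these data known. Alternatives were a pseudocount of 0.1, no filter, quantile normalization, median scaling, a replicate block, a sex term, no trend and leaving out each library. Python 3.11.15 was used for reading and plots.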

Additional observations from a re-analysis of the deposited data

Results flagged for a closer look

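For 6 of 30 genes looked at, every null library lay on one side of the heterozygous ones in sorted cells and on the other side in crypts. Each was higher in null G4 crypts and lower in null G3 sorted cells, and the difference between the 2 effects was not tested. Of all fitted genes 74.7% were higher without overlap in null G4 crypts and 12.6% lower without overlap in null G3 sorted cells, and the median differences were 0.36 and -0.46. Of the 10 genes it was Saa1, at 2.31 in crypts and -1.24 in sorted cells. The others were S100a14 (1.89 and -1.34), Wfdc18 (1.496 and -1.03), Tmem50b (1.33 and -0.61), Tap1 (2.15 and -0.46) and Ms4a8a (1.47 and -0.44), the sorted values of the last 2 being close to the median of all genes. The 2 settings differ in generation, in cells and possibly in normalization, and the crypt contrast was the one that chose Saa1. Ms4a8a, Tmem50b, S100a14 and Tap1 were named for their likeness to the 10 genes, in part by this pattern. Without null G3 replicate 1 Saa1 was -0.66 in sorted cells.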

How the results depend on the processing

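Counts of the 10 genes that passed held within 1.5 times under most alternatives. Calls over all genes varied more, and nothing is read from the counts. In null G4 against heterozygous crypts they went from 570 higher and 66 lower to 59 and 10 with a sex term. With a replicate block they were 1160 and 157. The counts of the 10 had these exceptions. With no filter 1 passed in null G4 and 1 in reactivated-labelled against heterozygous crypts, beside 16 and 18 higher of 25639 genes. With quantile normalization 3 passed in the latter, beside 65 higher and 23 lower of 11464. Between the library groups labelled reactivated and null G4, 1 passed with a sex term, beside 2 higher and 4 lower over all genes. For heterozygous sorted against unsorted cells 1 passed at a pseudocount of 0.1, beside 382 higher and 2854 lower. There 1 passed with median scaling, beside 2149 and 2343. In sorted null G3 cells 0 passed throughout, as over all genes. Leaving out a crypt library leaves 1 in its group, so counts of calls without single libraries are not given. Directions turned for Il22ra1 between reactivated and null G4 crypts (0.10 with quantile normalization and with median scaling, 0.044 with a sex term, and -0.15 to 0.044 without single libraries) and for Saa1 there (-1.06 to 0.41 without single libraries, positive without the first reactivated one). In sorted null G3 cells they turned for Il22ra1 (-0.42 to 0.57) and Upp1 (-0.36 to 0.70) without single libraries, negative without null G3 replicate 1, and for Stat3 (0.25 with quantile normalization, 0.36 with median scaling). Between sorted and unsorted heterozygous cells they turned for Stat3 (0.078, median scaling) and Socs3 (0.0094, quantile normalization). Beyond what is stated, the cause was not tested.

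The deviations of same-numbered libraries had r of 0.219 (heterozygous with null G4), -0.069 (heterozygous with reactivated) and -0.124 (null G4 with reactivated) in crypts. In sorted cells r was -0.19 to 0.0533. The 2 libraries of a crypt group deviate from their mean in mirror image, so both replicate numbers give the same r. No reference value for unpaired libraries was computed, so whether the numbers pair the libraries was not settled. With a replicate block 7, 6, 0, 0 and 2 genes passed, in the order null G4 and reactivated against heterozygous, reactivated against null G4, sorted null G3 and sorted against unsorted. Crossing the reactivated numbers, added after seeing the data, gave 0 for reactivated against null G4. Depth limits Osmr and Lcn2, at 0 to 3 reads in heterozygous crypts.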

Other observations

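The antimicrobial lectin genes Reg3b and Reg3g stood higher in sorted heterozygous cells than in heterozygous crypts. Reg3b was 548, 978 and 541 RPKM in sorted heterozygous cells against 15.7 and 58.5 in heterozygous crypts, and Reg3g was 32.1, 73.8 and 34.9 against 2.55 and 12.99. The sorted null G3 libraries had Reg3b at 1289, 1010 and 271 RPKM, on both sides of the heterozygous ones. Ly96 was likewise higher in sorted heterozygous cells, at 5.97 to 10.9 RPKM against 1.78 and 1.90. The 2 sets may have been normalized apart. All sorted heterozygous libraries lacked Y transcripts and both heterozygous crypt libraries carried them, so sorting and sex cannot be told apart between these 2 groups. Ly6g, a gene used as a neutrophil marker, was highest in the second crypt library labelled reactivated, at 28.2 RPKM, the library in which Saa1 was also highest.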
